A study of Homo sapiens with 8 samples.

Results

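Enzalutamide (ENZ) and EPZ6438 (EPZ), used as single agents on C4-2B cells, were compared directly with each other. The contrast takes 4 of the 8 libraries of the series: 2 from cells kept in ENZ at 10 uM and 2 from cells kept in EPZ6438 at 1 uM, each for 7 days. The remaining libraries, 2 of vehicle (DMSO) and 2 of both agents together (Combination, whose doses the labels do not give separately), served for the shared estimate of spread and as reference levels, and no DMSO value enters a difference. C4-2B is a castration-resistant derivative of the LNCaP prostate cancer line, and all groups are this 1 line. The doses of the agents differ 10 uM to 1 uM, so the comparison is of the treatments as given and not of matched doses. Genes were taken into the test when their mean was at least 1 FPKM (fragments per kilobase, scaled to library size) over the 8 libraries, which left 11874 of 26443 genes with values, 10554 of them protein coding.

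ENZ is an antiandrogen. It blocks the response to androgens, which in luminal prostate cells switch on secretory and metabolic genes such as the kallikreins and hold down another group of genes. EPZ6438, also known as tazemetostat, inhibits the methyltransferase activity of EZH2, the catalytic subunit of Polycomb repressive complex 2 (PRC2), which places the repressive trimethyl mark on lysine 27 of histone H3. Both agents act on proteins and not on RNA, so the RNA level of EZH2 does not check the labels.

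The depth that the smallest FPKM steps imply was 19300000 and 21800000 fragments in the ENZ libraries and 24400000 and 22300000 in the EPZ libraries, and 15400000 to 20300000 in the others. Between replicates, the median absolute log2 difference was 0.119 in ENZ and 0.0655 in EPZ. Nothing in the labels tells if the 2 libraries of a group are from separate cultures, so the p-values reflect only the spread between these libraries, which may be technical. On the second principal component, which held 18.9% of the variance, the ENZ libraries scored 28 and 29.3 and the EPZ libraries -27.4 and -27.7, with DMSO and Combination between -1.7 and 0.8. The luminal markers EPCAM, KRT8, KRT18 and FOXA1 were present in every library at 58.8 FPKM or more. Of markers of other cell types, 2 of 7 basal, 1 of 9 fibroblast, 1 of 9 leukocyte and 0 of 6 endothelial genes passed the filter, and KRT17, COL1A2, CD3D, CD3E, MS4A1 and KDR were listed at 0 in all 4 ENZ and EPZ libraries. The summed fibroblast list stood at 4.7 and 3.65 FPKM in ENZ and 3.11 and 3.16 in EPZ, and the leukocyte list, mostly CD68, at 7.39 and 6.57 in ENZ and 10.6 and 11.1 in EPZ.

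A total of 6003 genes differed between EPZ and ENZ at an adjusted p under 0.05 (limma, two-sided moderated test, Benjamini-Hochberg over all tested genes), which is 50.6% of those tested. Of these, 2373 (20.0% of tested genes) were higher in EPZ and 3630 (30.6%) were lower, and for every called gene both EPZ values lay outside both ENZ values. The split depends on scaling: 39.5% of calls were higher in EPZ with FPKM as deposited, 50.4% (2992 higher and 2947 lower) after median-of-ratios scaling and 47.1% (2684 and 3020) after quantile normalization. Differences of at least 2-fold on the log2(FPKM + 1) scale were found for 301 genes higher in EPZ (2.53%) and 256 lower (2.16%), and differences of at least 4-fold for 90 higher and 27 lower. The median difference over all tested genes was -0.062. Below, a difference is EPZ minus ENZ on the log2(FPKM + 1) scale with its standard error (SE), which understates the change of low genes, and each level is FPKM with the 2 libraries of a group in order. In bulk RNA, fewer cells expressing a gene and less of its RNA per cell cannot be told apart.

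**Figure D1:**
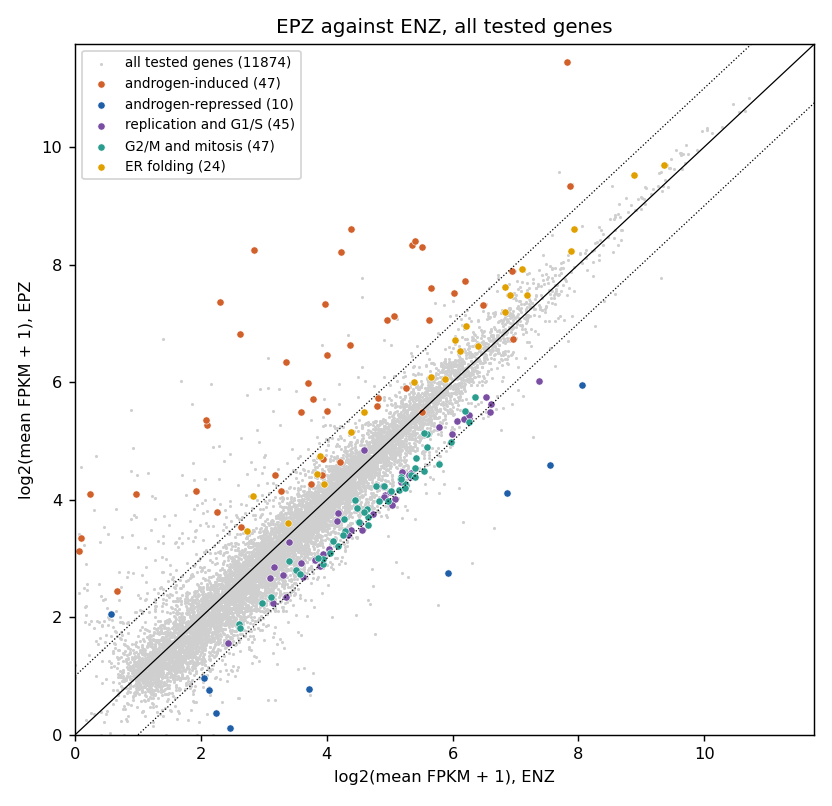
Mean level of each of the 11874 tested genes in ENZ (x axis) and EPZ (y axis), both as log2(mean FPKM + 1); the solid line marks equality and the dotted lines 2-fold differences. Androgen-induced genes lie above the diagonal and androgen-repressed genes below it, while replication and mitosis genes run in a band just under the diagonal and endoplasmic reticulum (ER) folding genes just above it.

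The clearest separation was in androgen-responsive genes. Of 50 androgen-induced genes 47 were tested, of which 45 were higher in EPZ, 1 was lower and 1 did not pass, against 20.0% and 30.6% of all tested genes. Their median difference was 1.94, against -0.062 over all genes, and 34 of them were at least 2-fold higher in EPZ. HPGD, TARP and ORM1 were under the filter.

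KLK3 encodes prostate-specific antigen, a secreted serine protease. It stood at 225 and 223 FPKM in ENZ and at 2800 and 2800 in EPZ, with DMSO at 978 and 1010 and Combination at 383 and 400. The difference was 3.64 (SE 0.047, adjusted p = 4.39e-11), and the DMSO level lay between the agents. KLK2, the neighbouring kallikrein gene, had the highest named difference at 5.40 (SE 0.070): 6.46 and 5.97 FPKM in ENZ against 299 and 308 in EPZ, with DMSO at 72 and 80.1. KLK2 and KLK3 are near-identical in parts, so reads could be split between them and their separate values are uncertain. Their promoters are shown because they are the only tested androgen-induced genes, among the 38 with a promoter in the RefSeq table (GRCh38.p14), that hold an androgen response element-like pair: GAACA, 3 bases, NGTNCT, on either strand. The bases are the 180 before the start, 5′ to 3′, with the match in capitals.

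KLK3, chr19:50854735-50854914, plus strand: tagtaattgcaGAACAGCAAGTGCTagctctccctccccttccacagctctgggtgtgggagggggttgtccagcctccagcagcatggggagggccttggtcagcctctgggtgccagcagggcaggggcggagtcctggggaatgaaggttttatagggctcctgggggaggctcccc
KLK2, chr19:50873259-50873438, plus strand: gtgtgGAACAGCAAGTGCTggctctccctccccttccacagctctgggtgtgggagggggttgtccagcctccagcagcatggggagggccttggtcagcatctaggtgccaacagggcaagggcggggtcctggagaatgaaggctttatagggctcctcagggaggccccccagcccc

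The pair begins 169 bases before the start in KLK3 and 175 in KLK2. That pair was chosen after these sequences were seen, and 0.267% of all 27305 promoters and 0.128% of the 9352 tested genes with a promoter hold it. The element first searched (GNACA, 3 bases, TGTNC) was in 0 of the 38 androgen-induced promoters. It was more common elsewhere than the pair shown, in 0.182% of tested genes and 0.388% of all promoters. The hexamer AGAACA was in 4 of 38 (10.5%), against 8.45% of tested genes and 14.9% of all promoters. These matches are descriptions of the windows.

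TMPRSS2, a transmembrane serine protease gene, stood at 19.7 and 20 FPKM in ENZ and at 381 and 396 in EPZ, with DMSO at 92.3 and 90.1, a difference of 4.22 (SE 0.050, adjusted p = 3.65e-11). SLC45A3, a prostate solute carrier gene, stood at 4.31 and 3.6 in ENZ and 160 and 168 in EPZ, a difference of 5.06 (SE 0.074). In both the groups were far apart and the DMSO libraries lay between them. PMEPA1, a transmembrane regulator of TGF-beta signalling, differed by 4.2 (SE 0.057), FKBP5, a co-chaperone of steroid receptors, by 2.99 (SE 0.071), and the cold-sensing channel gene TRPM8 by 3.86 (SE 0.081). Of the 47 tested members, 41 had a DMSO mean between the means of ENZ and EPZ. Wide gaps leave more room for a level between, and no share over all tested genes was taken. The summed FPKM of the list was 1590 and 1620 for ENZ and 8190 and 8400 for EPZ; the DMSO libraries held 4070 and 4160 and the Combination libraries 1810 and 1870. The member lower in EPZ was STEAP2, a metalloreductase gene, at 113 and 133 in ENZ and 106 and 104 in EPZ (difference -0.22, SE 0.075, adjusted p = 0.0314), a call lost under several alternatives, such as without ENZ replicate 2 (-0.11, adjusted p = 0.158). SLC38A2 did not pass, at -0.025 (SE 0.068).

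Androgen-repressed genes moved the other way. Of 10 tested members 9 were lower in EPZ, each at least 2-fold, and 1 was higher, against 30.6% and 20.0% of all tested genes. Their median was -2.22. OPRK1 and CDH2 were under the filter. CAMK2N1, an inhibitor of a calmodulin-dependent kinase, stood at 183 and 190 FPKM in ENZ and 22 and 24.5 in EPZ, close to the 19.6 and 20.9 of DMSO, with Combination at 220 and 242. Its difference was -2.95 (SE 0.071, adjusted p = 1.80e-09). FOLH1, which encodes prostate-specific membrane antigen, stood at 257 and 275 in ENZ and 58.9 and 62.9 in EPZ, with DMSO between at 95 and 95.9, a difference of -2.11 (SE 0.058). ACKR3, a scavenging chemokine receptor gene, differed by -3.18 (SE 0.090), the decarboxylase gene DDC by -2.74 (SE 0.075) and the cholinesterase gene BCHE by -2.93 (SE 0.10). In EPZ, ACKR3 and BCHE stood above both DMSO values and DDC below them. UGT2B15 (-1.87, SE 0.12) and UGT2B17 (-2.33, SE 0.11), which glucuronidate androgens, were lower, and UGT2B11 was the exception at 1.48 (SE 0.099). These UGT2B genes are near-identical, so reads may be split between them.

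**Figure D2:**
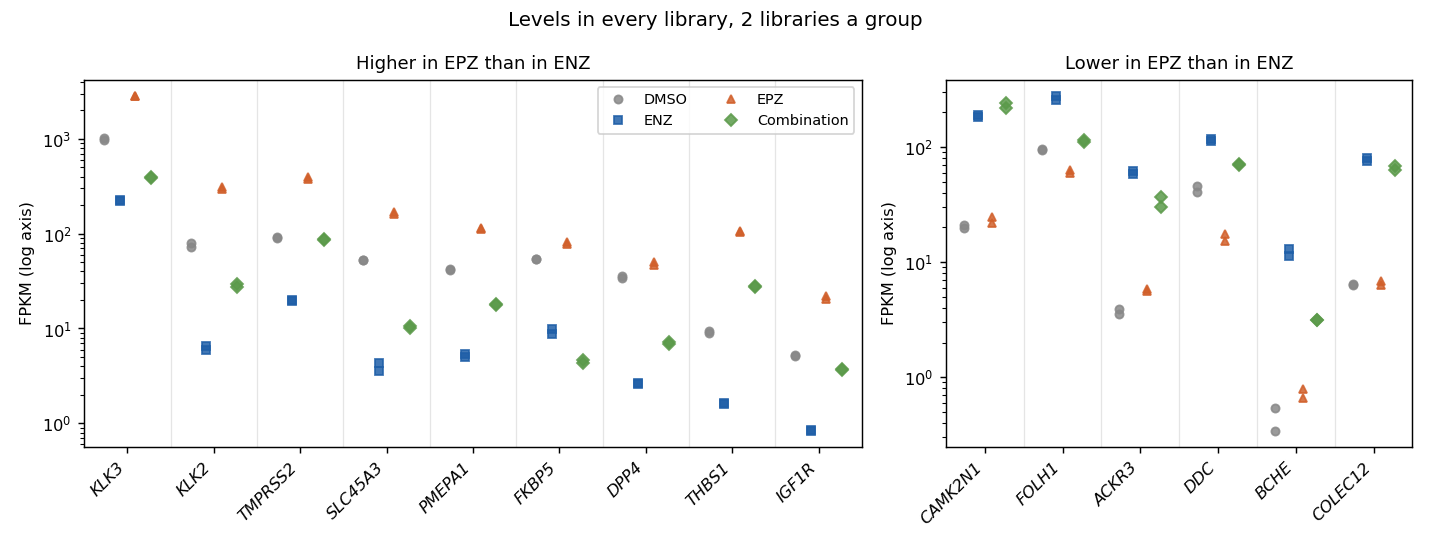
FPKM (log axis) of 15 genes in each library, with 2 points a group for DMSO, ENZ, EPZ and Combination. In the left panel EPZ is the highest group and ENZ is below DMSO for each gene, and in the right panel ENZ is above EPZ for each gene.

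Of 12 tested transcription factor genes of the prostate lineage 5 were higher in EPZ, 3 of them at least 2-fold. Another 4 were lower, none by 2-fold, against 20.0% higher and 30.6% lower among all tested genes. Not all members are reported. SPDEF, an ETS factor gene, differed by 1.94 (SE 0.063), and CREB3L4, a membrane-bound bZIP factor gene, by 1.44 (SE 0.063), while the homeobox gene HOXB13 differed by -0.60 (SE 0.057). FOXA1, a pioneer factor gene, stood at 106 and 108 in ENZ and 104 and 104 in EPZ, a difference of -0.046 (95% interval -0.17 to 0.077).

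Luminal markers were mostly higher in EPZ, with a median of 1.09. Of 10 tested members 7 were higher and 2 lower, against 20.0% and 30.6% of all tested genes. KRT18 stood at 109 and 99.7 FPKM in ENZ and 218 and 218 in EPZ (1.06, SE 0.057), and KRT8 at 75.7 and 69.2 in ENZ and 137 and 143 in EPZ (0.94, SE 0.062). KRT19 differed by 2.42 (SE 0.11), the peptidase gene DPP4 by 3.77 (SE 0.064), and AGR2, an ER-resident disulfide isomerase family gene, by 3.29 (SE 0.070). Among the lower members was ACPP, prostatic acid phosphatase, at -0.66 (SE 0.099). All 9 tested glucocorticoid-induced genes were higher in EPZ, with a median of 0.75, but with any single library left out fewer than 9 passed. Among all tested genes 20.0% were higher in EPZ. Of the 9 glucocorticoid-induced genes, 4 (FKBP5, SGK1, TSC22D3 and ERRFI1) are also on the androgen-induced list. ZBTB16, a zinc finger factor gene on the glucocorticoid list only, stood at 0.856 and 1.12 FPKM in ENZ and 20.5 and 20.1 in EPZ, a difference of 3.43 (SE 0.090), and the clock gene PER1 differed by 1.42 (SE 0.075).

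The second separation ran through the cell cycle, in the opposite sense. Of 45 tested DNA replication and G1/S genes 43 were lower in EPZ and 1 was higher, with a median of -0.87. All 47 tested G2/M and mitosis genes were lower, with a median of -0.84, against 30.6% of all genes. The differences were even and moderate: the mitosis genes ranged from -1.17 to -0.41, and 8 of 47 reached 2-fold, as did 7 of 45 replication genes. The summed FPKM of the mitosis list was 1370 and 1470 for ENZ and 770 and 799 for EPZ, against 1850 and 1900 for DMSO and 139 and 139 for Combination, so ENZ lay between DMSO and EPZ.

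PCNA, the sliding clamp of DNA polymerases, stood at 89.8 and 102 FPKM in ENZ and 42 and 46.2 in EPZ, with DMSO at 107 and 105, a difference of -1.10 (SE 0.072, adjusted p = 1.90e-06). TK1, thymidine kinase, stood at 173 and 156 in ENZ and 60.2 and 68.1 in EPZ (-1.34, SE 0.073), and MCM2, a subunit of the replicative helicase, at 99.6 and 93 in ENZ and 49.4 and 47.8 in EPZ (-0.97, SE 0.056). In these 3 genes ENZ was closer to DMSO than to EPZ, and ENZ and EPZ did not overlap. CDC45, a helicase cofactor gene, and the cyclin gene CCNE2 each differed by -1.07. The exception was GMNN, which encodes the licensing inhibitor geminin, at 0.26 (SE 0.071, adjusted p = 0.0126), and CCNE1 did not pass at -0.12 (SE 0.063).

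The 3 called replication genes with the largest differences that hold an E2F-type site (TTTNNCGC on either strand) in the 150 bases before the start are shown, because E2F factors drive genes at the G1/S boundary. The site is in capitals.

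TYMS, chr18:657503-657652, plus strand: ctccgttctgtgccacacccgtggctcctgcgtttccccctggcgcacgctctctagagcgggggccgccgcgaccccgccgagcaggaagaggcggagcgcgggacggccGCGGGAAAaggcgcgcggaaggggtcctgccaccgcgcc
PCNA, chr20:5126623-5126772, minus strand: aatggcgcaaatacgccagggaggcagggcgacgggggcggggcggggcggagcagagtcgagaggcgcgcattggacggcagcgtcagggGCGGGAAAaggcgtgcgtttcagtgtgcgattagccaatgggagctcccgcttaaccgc
UHRF1, chr19:4909351-4909500, plus strand: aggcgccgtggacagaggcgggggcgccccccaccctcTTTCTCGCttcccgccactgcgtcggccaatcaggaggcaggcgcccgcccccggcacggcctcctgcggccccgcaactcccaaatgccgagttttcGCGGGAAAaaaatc

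The site was in 25 of the 40 replication promoters in the table (62.5%; 250 bases before to 50 after the start), against 11% of tested genes and 6.9% of all promoters. TYMS, thymidylate synthase, differed by -1.13 (SE 0.081) and UHRF1, which helps maintain DNA methylation, by -1.01 (SE 0.081).

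Among mitosis genes, TOP2A, the topoisomerase that untangles chromosomes, stood at 50.3 and 58.2 FPKM in ENZ and 23.5 and 23.6 in EPZ, with DMSO at 51.1 and 54.9, a difference of -1.17 (SE 0.075). MKI67, the proliferation antigen gene, stood at 36 and 38.6 in ENZ and 18.9 and 17.2 in EPZ (-1.01, SE 0.078), with DMSO at 32.5 and 33.7 and Combination at 2.62 and 2.22. PRC1, a spindle midzone protein gene, differed by -1.05 (SE 0.056), the mitotic kinase gene AURKB by -1.06 (SE 0.074) and FOXM1, a transcription factor gene for G2/M, by -1.03 (SE 0.071). AURKB in ENZ, at 45.4 and 46.2, was below the 68 and 63 of DMSO. The cell cycle homology region (CHR, TTTGAA on either strand, in capitals) is the element through which the MuvB complex acts. Promoters are shown for the 3 called mitosis genes with the largest differences that hold it in the 150 bases before the start.

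PRC1, chr15:90994536-90994685, minus strand: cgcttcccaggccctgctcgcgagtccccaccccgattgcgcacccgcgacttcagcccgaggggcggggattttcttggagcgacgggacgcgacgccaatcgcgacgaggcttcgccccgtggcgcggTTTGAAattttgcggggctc
ESPL1, chr12:53268149-53268298, plus strand: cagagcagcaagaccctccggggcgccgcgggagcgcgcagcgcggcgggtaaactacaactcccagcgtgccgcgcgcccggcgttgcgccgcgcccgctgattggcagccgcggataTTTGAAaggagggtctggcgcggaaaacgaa
MKI67, chr10:128126424-128126573, minus strand: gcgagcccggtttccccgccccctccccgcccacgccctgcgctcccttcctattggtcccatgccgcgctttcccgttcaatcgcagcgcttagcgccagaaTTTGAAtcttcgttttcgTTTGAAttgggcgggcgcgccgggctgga

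The CHR was in 28 of 39 mitosis promoters (71.8%), against 8.92% of tested genes and 15.4% of all promoters, and CCAAT in 31 of 39 (79.5%), against 37.6% and 35.7%. With only the 250 bases before the start, the CHR share was 53.8%. ESPL1, the separase gene, differed by -1.02 (SE 0.10).

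Homologous recombination and Fanconi anaemia genes were lower in EPZ as well, in 30 of 31 tested, against 30.6% of all tested genes. Their median was -0.84, against -0.062 over all genes. ATR, a checkpoint kinase gene, did not pass at -0.073 (SE 0.077). BARD1, the partner of BRCA1, stood apart: at 33.2 and 37.9 FPKM in ENZ and 5.54 and 5.86 in EPZ, with DMSO between at 18.9 and 19, it differed by -2.45 (SE 0.071, adjusted p = 5.20e-09). BRCA1 stood at 15.7 and 18.1 in ENZ and 7.12 and 6.92 in EPZ, a difference of -1.16 (SE 0.077), and RAD54L, a recombination motor protein gene, differed by -1.36 (SE 0.084). Of 31 members 18 had a DMSO mean between ENZ and EPZ, with no share over all tested genes taken.

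Cell cycle regulators were mostly lower in EPZ, against 30.6% lower and 20.0% higher among all tested genes. Of 15 tested cyclin, kinase, inhibitor and pocket protein genes 11 were lower (7 without EPZ replicate 1) and 2 higher in EPZ, with a median of -0.31. CDK2 (-0.90, SE 0.067), the pocket protein gene RBL1 (-0.90, SE 0.072) and the repressor E2F genes E2F8 (-0.99, SE 0.089) and E2F7 (-0.76, SE 0.074) were lower. Both higher genes were CDKN1A, the inhibitor p21, and the cyclin gene CCND1. CDKN1A stood at 22.6 and 20.6 FPKM in ENZ and 52 and 53.1 in EPZ, with DMSO between at 33.8 and 32.5, a difference of 1.24 (SE 0.062). CCND1 stood at 91.1 and 94.9 in ENZ and 132 and 136 in EPZ (0.52, SE 0.052). CDKN1C, the inhibitor p57, was under the filter, at 0.753 and 0.452 in ENZ and 1.11 and 1.11 in EPZ. The p53 target list, which holds CDKN1A, had 5 of 20 higher and 8 lower (4 without EPZ replicate 2), near the 20.0% and 30.6% of all tested genes, and its median was -0.076. The growth factor gene GDF15, at 26.3 and 19 in ENZ and 175 and 173 in EPZ, had the largest difference among them, 2.91 (SE 0.12).

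**Figure D3:**
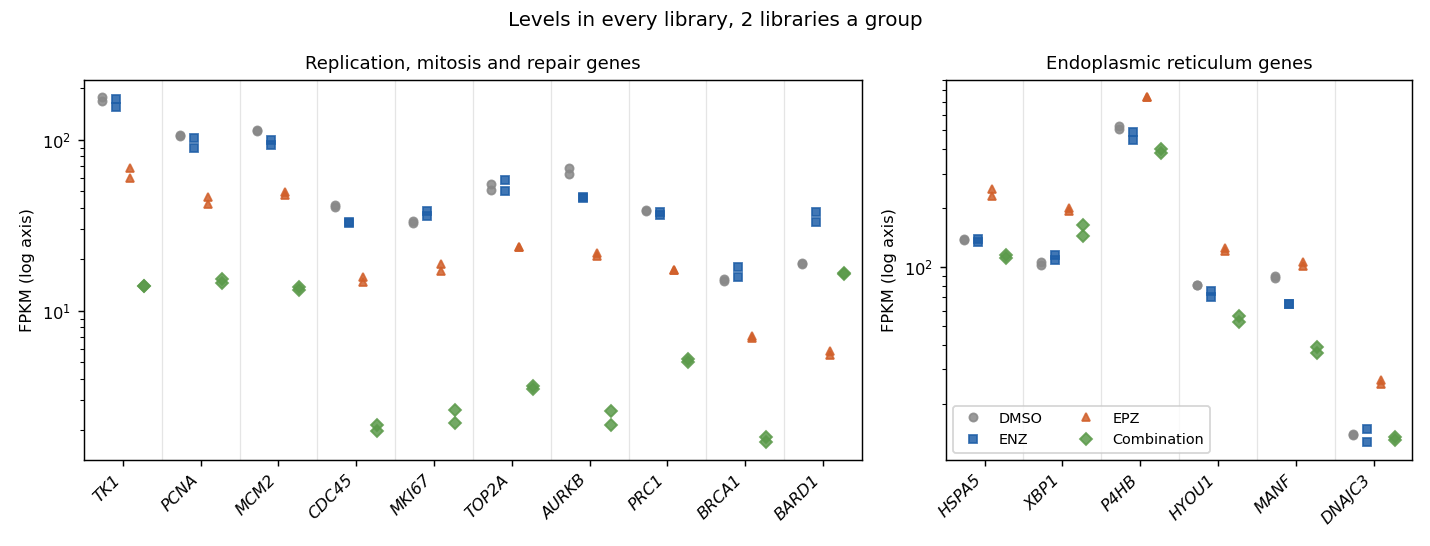
FPKM (log axis) of 16 genes in each library, with 2 points a group. For the replication, mitosis and repair genes on the left EPZ lies below ENZ and Combination is lowest except for BARD1; for the ER genes on the right EPZ is the highest group.

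Genes for folding and quality control in the ER were higher in EPZ in 23 of 24 tested, against 20.0% of all tested genes. Their median was 0.61, and DNAJB11 did not pass. HSPA5, the main ER chaperone BiP, stood at 134 and 140 FPKM in ENZ and 230 and 252 in EPZ, with DMSO at 138 and 140 and Combination at 111 and 116, a difference of 0.81 (SE 0.058, adjusted p = 3.39e-06). P4HB, a protein disulfide isomerase gene, stood at 491 and 447 in ENZ and 737 and 741 in EPZ (0.66, SE 0.057). XBP1, the transcription factor of the unfolded protein response, stood at 109 and 116 in ENZ and 193 and 200 in EPZ (0.80, SE 0.070), and DNAJC3, a co-chaperone gene, differed by 0.86 (SE 0.075). The HSPA5 values of ENZ and DMSO overlapped, and EPZ was above all other groups. FPKM do not show XBP1 splicing. The ER stress response element is CCAAT, 9 bases, CCACG, on either strand, in capitals. Shown are the 2 called members with the largest differences that hold it in the 150 bases before the start.

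HSPA5, chr9:125241344-125241493, minus strand: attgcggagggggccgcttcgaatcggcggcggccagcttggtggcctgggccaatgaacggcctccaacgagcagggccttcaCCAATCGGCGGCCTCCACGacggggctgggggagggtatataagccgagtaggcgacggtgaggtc
XBP1, chr22:28800570-28800719, minus strand: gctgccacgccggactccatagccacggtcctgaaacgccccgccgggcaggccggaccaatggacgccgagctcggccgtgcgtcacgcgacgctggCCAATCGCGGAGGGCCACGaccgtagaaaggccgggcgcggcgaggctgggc

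The element was in 6 of 23 ER promoters (26.1%), against 0.15% of tested genes and 0.0806% of all promoters. CCAAT alone was in 19 of 23 (82.6%), against 37.6% of tested genes and 35.7% of all promoters. Every full element holds a CCAAT.

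Some lists of lipid and sugar metabolism genes separated the agents too. Of 15 tested fatty acid synthesis genes 12 were higher and 2 lower in EPZ, against 20.0% and 30.6% of all tested genes. Their median was 0.61. ACSL3, which activates long-chain fatty acids, stood at 38.2 and 41.1 FPKM in ENZ and 311 and 332 in EPZ, with DMSO between at 148 and 153, a difference of 2.99 (SE 0.060). The elongase genes ELOVL5 and ELOVL7 differed by 2.77 (SE 0.072) and 2.83 (SE 0.091), and FASN, fatty acid synthase, at 258 and 215 in ENZ and 692 and 622 in EPZ, by 1.47 (SE 0.084). ACSL3 and ELOVL5 are also on the androgen-induced list. Another elongase gene, ELOVL6, went the other way, at 7.42 and 8.35 in ENZ and 1.57 and 1.66 in EPZ (-1.76, SE 0.096), as did the desaturase gene FADS1 (-0.65, SE 0.059).

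Of 23 cholesterol genes 12 were higher and 3 lower (median 0.23), against 20.0% and 30.6% of all tested genes. The squalene synthase gene FDFT1 differed by 0.65 (SE 0.058), while CYP51A1 differed by -0.43 (SE 0.062). Of 21 glycolysis genes 12 were higher and 3 lower (median 0.27): the glucose transporter gene SLC2A1 stood at 16.5 and 16.2 FPKM in ENZ and 36.8 and 37.6 in EPZ (1.14, SE 0.056), and the hexokinase gene HK2 differed by 1.10 (SE 0.086). The neuronal enolase gene ENO2 was lower, at 8.27 and 8.2 in ENZ and 1.35 and 1.26 in EPZ (-2.0, SE 0.083). Fatty acid oxidation genes were split, 3 higher and 7 lower of 17, against 20.0% and 30.6% of all tested genes. ACADL differed by 1.99 (SE 0.078) and HADHB by -0.64 (SE 0.055).

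In the insulin-like growth factor axis 6 of 8 tested genes were higher in EPZ and 1 lower, against 20.0% and 30.6% of all tested genes. Their median was 0.57. IGF1R, the receptor, stood at 0.853 and 0.84 FPKM in ENZ and 22.1 and 20.7 in EPZ, with DMSO between at 5.3 and 5.11, a difference of 3.60 (SE 0.070). IGFBP3, a binding protein gene, stood at 21.3 and 21.6 in ENZ and 69.2 and 64.1 in EPZ, both above the 3.45 and 3.45 of DMSO, with Combination at 2150 and 2330. Its difference was 1.59 (SE 0.061). Of 11 immediate early and MAPK feedback genes 9 were higher and 1 lower (median 0.43), led by the phosphatase gene DUSP4 at 2.31 (SE 0.072), and the MYC gene differed by 0.70 (SE 0.053). TGF-beta and BMP genes were split, 5 higher and 6 lower of 25, which is not above the 20.0% and 30.6% of all tested genes. Single members differed, with the receptor gene BMPR1B at 3.07 (SE 0.083), TGFB2 at 2.35 (SE 0.096) and the ligand gene BMP7 at -1.04 (SE 0.089).

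Matrix and adhesion genes were split as well, 8 higher and 11 lower of 25, against 20.0% and 30.6% of all tested genes. Their median was -0.099. THBS1, a matricellular glycoprotein gene, stood at 1.6 and 1.65 FPKM in ENZ and 108 and 105 in EPZ, with DMSO between at 8.87 and 9.44, a difference of 5.35 (SE 0.059), second only to KLK2 among named genes. The laminin gene LAMC1 was higher (1.00, SE 0.055), while LAMA3 (-0.87, SE 0.068) and the integrin genes ITGA2 (-1.01, SE 0.064) and ITGB4 (-1.65, SE 0.095) were lower. ITGB4 is also a basal marker. The summed basal list stood at 10.3 and 8.35 FPKM in ENZ and 3.05 and 3.11 in EPZ, of which ITGB4 gave a mean of 8.22 in ENZ and 1.93 in EPZ, with KRT17 listed at 0 and KRT5 and TP63 at most at 0.0211.

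Of 12 PRC2 subunit genes 7 were lower and 2 higher in EPZ, against 30.6% and 20.0% of all tested genes. Their median was -0.29, and 6 were lower after median-of-ratios scaling or quantile normalization. EZH2 stood at 23.4 and 26.3 FPKM in ENZ and 16.1 and 14.7 in EPZ, with DMSO at 26.2 and 25.4 and Combination at 6.47 and 6.28, a difference of -0.66 (SE 0.072, adjusted p = 5.64e-05). PHF19, a Polycomb-like subunit gene, differed by -1.40 (SE 0.093), SUZ12 by -0.38 (SE 0.079), and JARID2 was higher at 0.22 (SE 0.079). EZH2, like the mitosis genes, was lower in EPZ and lowest in Combination. Of 18 genes described as repressed by EZH2 in tumours only 9 were tested. Of these, 2 were higher and 2 lower (median -0.081), against 20.0% and 30.6% of all tested genes. The BMP receptor gene BMPR1B had the widest difference, 3.07 (SE 0.083), higher in EPZ. The Wnt ligand gene WNT5A, at 5.79 and 6.27 in ENZ and 1.47 and 1.22 in EPZ, differed by -1.59 (SE 0.088), with DMSO at 0.633 and 0.497. Of 54 developmental factor genes typically bound by PRC2, 27 were tested, 6 were higher and 11 lower (median -0.14), not far from the 20.0% and 30.6% of all tested genes. SOX9 (1.72, SE 0.10) and DLX2 (1.45, SE 0.11) were higher, and HOXA13 (-1.32, SE 0.13), HOXA10 (-0.92, SE 0.067) and ZIC2 (-0.85, SE 0.072) lower.

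Further genes were among those with the highest differences. NPPC, a natriuretic peptide gene, stood at 0.962 and 0.72 FPKM in ENZ and 47.1 and 43.1 in EPZ (4.65, SE 0.084), PGC, a pepsinogen gene, at 0.229 and 0.278 in ENZ and 25.8 and 25.8 in EPZ (4.42, SE 0.10), and CRISP3, a secretory glycoprotein gene, at 0.925 and 0.859 in ENZ and 27.4 and 29.5 in EPZ (3.96, SE 0.079). CYP4F8, a prostaglandin hydroxylase gene, differed by 4.46 (SE 0.13), the sialyltransferase gene ST6GALNAC1 by 4.34 (SE 0.070) and the small GTPase gene RHOU by 3.80 (SE 0.064). ST6GALNAC1 in EPZ, at 62.5 and 65.9, was below the 69 and 77.2 of DMSO. Glycosyltransferase genes as a list were split, 6 higher and 8 lower of 18, against 20.0% and 30.6% of all tested genes.

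Among the lowest named genes, COLEC12, a scavenger receptor gene, stood at 79.5 and 76.3 FPKM in ENZ and 6.85 and 6.32 in EPZ, near the 6.29 and 6.45 of DMSO (-3.38, SE 0.064). PLA2G2A, a secreted phospholipase gene, stood at 103 and 96.6 in ENZ against 11.7 and 9.37 in EPZ, with DMSO under 1 FPKM and Combination at 844 and 948 (-3.13, SE 0.12). PREX1, an exchange factor for Rac, stood at 12.9 and 11.6 in ENZ and 0.642 and 0.54 in EPZ, with DMSO between at 1.57 and 1.72 (-3.06, SE 0.088). LUZP2 differed by -3.04 (SE 0.088), the orphan receptor gene NR2F1 by -2.74 (SE 0.077), RAP2B by -2.61 (SE 0.067), MATN2 by -2.59 (SE 0.090), the neural adhesion gene NCAM2 by -2.54 (SE 0.068), and the myosin kinase gene MYLK and the synaptic gene RIMS1 each by -2.48. CDR1, at -3.54 (SE 0.13), had the lowest difference, but its reads cannot be told apart from those of its antisense partner, since no strand setting is known here.

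Some strong responses were shared. Of 9 genes averaging 50 FPKM or more that both agents moved at least 2-fold from DMSO in the same direction, the 5 with the narrowest difference between the agents included MT2A, MALAT1, SLPI and FN1. MT2A, a metallothionein gene with near-identical relatives, stood at 123 and 114 FPKM in ENZ and 119 and 119 in EPZ, against 283 and 294 in DMSO, and its difference of 0.012 had a 95% interval of -0.14 to 0.16. SLPI, a protease inhibitor gene, stood at 190 and 167 in ENZ and 156 and 157 in EPZ, against 25 and 32.2 in DMSO (-0.19, interval -0.44 to 0.061). The nuclear RNA MALAT1 differed by -0.16 (interval -0.33 to 0.0007), which did not pass. FN1, the fibronectin gene, did pass, at 0.32 (SE 0.064). These genes were chosen for being alike, so their closeness is a description.

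Other lists gave smaller or divided differences. Their counts stand against 20.0% higher and 30.6% lower among all tested genes. Of 39 spliceosome, SR protein and hnRNP genes 22 were lower in EPZ and 0 higher, with a median of -0.19, led by HNRNPH1 at -0.72 (SE 0.054). Of 76 cytosolic ribosomal protein genes 35 were higher and 0 lower (median 0.15), but after quantile normalization the counts were 13 higher and 18 lower and the median -0.006, so their direction depends on scaling. Their reads are shared with pseudogenes. Respiratory chain (16 higher and 4 lower of 44), proteasome (13 and 3 of 34), lysosome and autophagy (12 and 6 of 34) and aminoacyl-tRNA synthetase genes (6 and 2 of 20) had medians between 0.057 and 0.12. Without EPZ replicate 2, the genes higher in EPZ were 15 of the ribosomal proteins (22 without ENZ replicate 2), 5 of the respiratory chain and 4 of the proteasome. Ribosome biogenesis genes were 4 higher (7 without ENZ replicate 1) and 1 lower of 26, and common reference genes 5 and 3 of 14. Of 14 interferon-stimulated genes 2 were higher and 6 lower, with OAS3 at -1.13 (SE 0.076), and of 7 HLA class I and peptide loading genes 1 was higher and 5 lower. HLA genes are near-identical and uncertain, and 3 were lower without ENZ replicate 1 or either EPZ replicate. B2M was the exception, at 49 and 48.2 in ENZ and 79 and 88 in EPZ (0.77, SE 0.063). ATF4 and amino acid supply genes were 4 higher and 6 lower of 18, near the shares of all tested genes. Among them, the serine synthesis gene PHGDH stood at 321 and 288 in ENZ and 121 and 125 in EPZ (-1.30, SE 0.059). Steroid metabolism genes were 4 higher and 5 lower of 11, and zinc and metallothionein genes 6 and 2 of 15, with a median of 0.12 that turned negative without ENZ replicate 2. Too few neuroendocrine (3 of 17) and mesenchymal genes (3 of 13) were tested to describe a list. SYT4, a synaptotagmin gene, stood at 29.3 and 33.4 in ENZ and 96.9 and 100 in EPZ (1.62, SE 0.077). Of the 3 tested mesenchymal genes 1 was higher and 2 lower in EPZ, with a median of -0.19 and a lowest difference of -0.53. The higher one was SNAI2, a mesenchymal repressor gene, at 0.0985 and 0.174 in ENZ and 4.63 and 5.23 in EPZ (2.38, SE 0.10). The neuroendocrine marker CHGA was at most at 0.0508 FPKM in these 4 libraries.

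**Figure D4:**
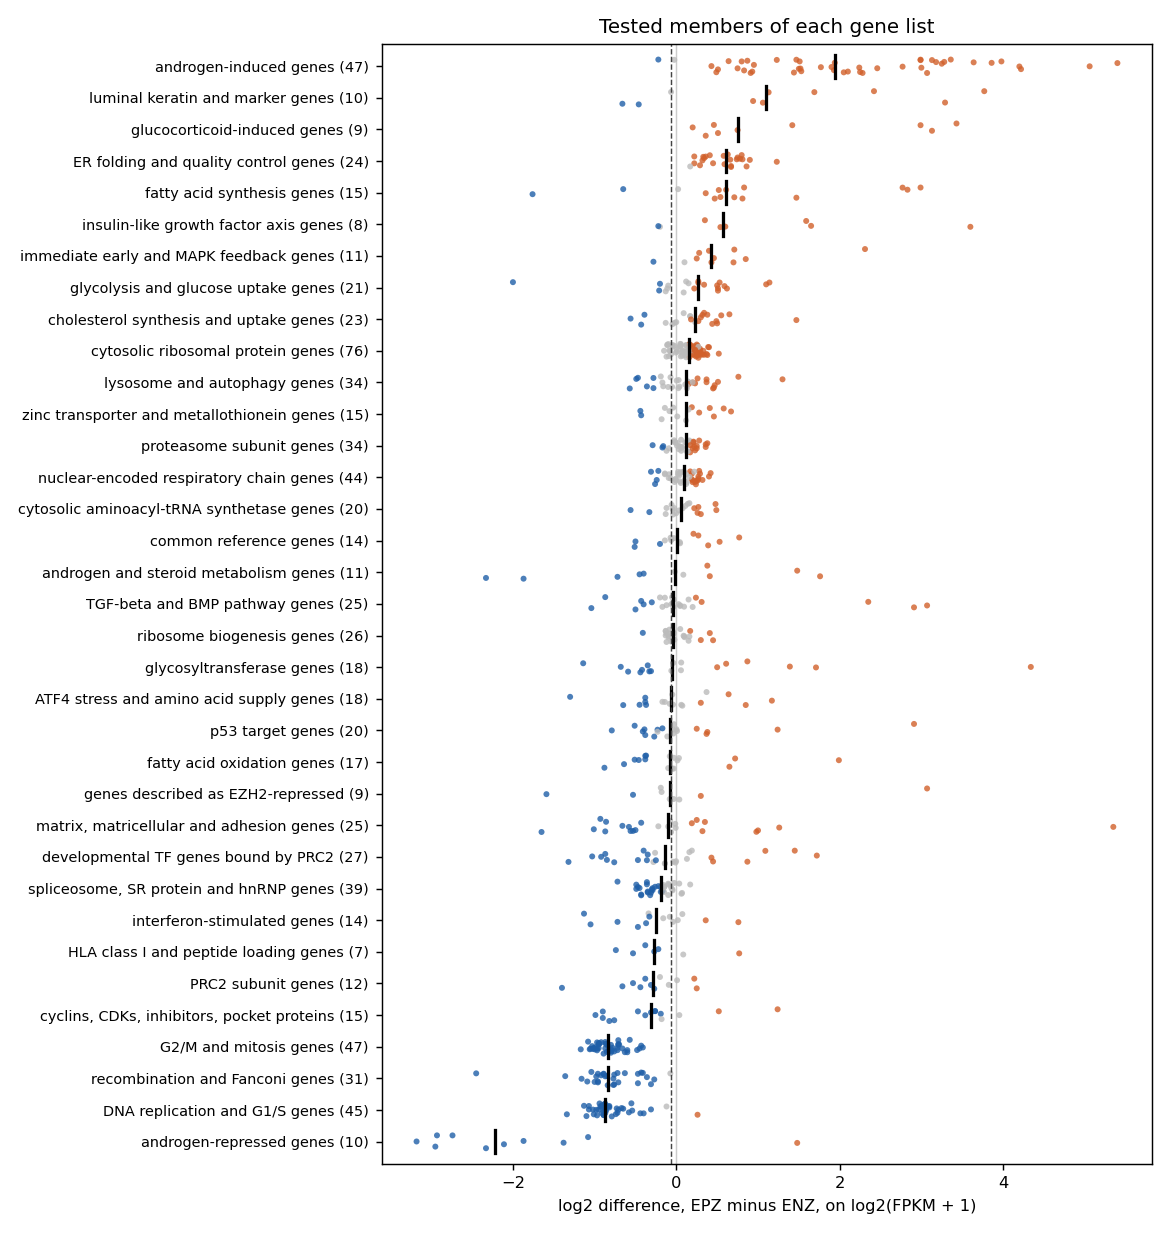
Difference between EPZ and ENZ (x axis, log2(FPKM + 1) scale) of each tested member of the lists with 7 or more tested genes (prostate lineage factors not drawn), whose numbers stand in brackets; orange points passed as higher in EPZ, blue as lower and grey did not pass. Black bars are list medians and the dashed line is the median of all tested genes, -0.062; androgen-induced and androgen-repressed genes take opposite ends.

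DMSO and Combination were placed against the 2-fold differences as a description. Genes chosen for a wide gap leave more room for a level between, and no share over all tested genes was taken. Of the 301 genes at least 2-fold higher in EPZ, both DMSO libraries lay between ENZ and EPZ for 223 (74.1%), above both for 20 and below both for 24. Of the 256 genes at least 2-fold lower in EPZ, DMSO lay between for 136 (53.1%), above for 16 and below for 48. For the first group, both Combination libraries were nearer the ENZ mean for 208 genes (69.1%) and nearer the EPZ mean for 85 (28.2%). For the second, they were nearer ENZ for 133 (52%) and nearer EPZ for 110 (43%). At 1.5-fold, the share with DMSO between was 60.6% of 672 genes higher and 39.6% of 1067 lower, and Combination was nearer EPZ for 52.9% of the lower genes.

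**Figure D5:**
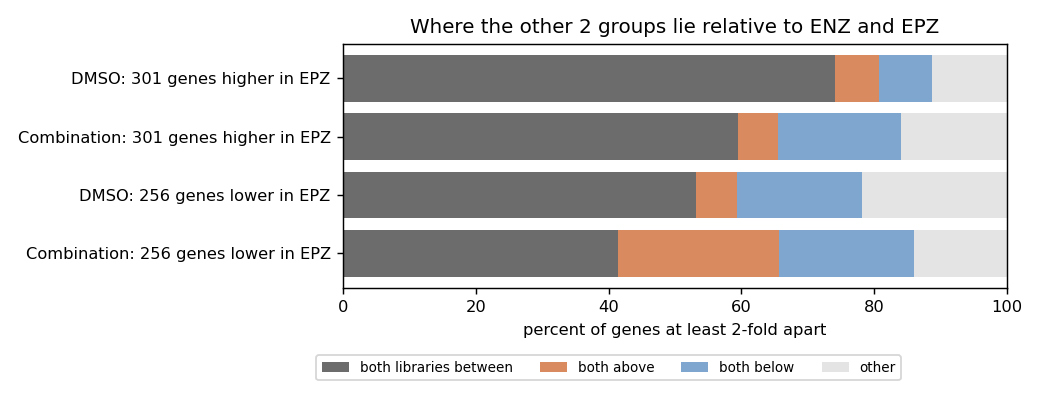
Share of the genes at least 2-fold different between the agents (x axis, percent) for which both DMSO or both Combination libraries lie between, above or below the ENZ and EPZ values. The share between is largest for DMSO among the 301 genes higher in EPZ, at 74.1%.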

How the data were processed

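RNA sequencing libraries of C4-2B cells, 2 for each of DMSO, ENZ, EPZ and Combination, were made with a NEBNext Ultra RNA kit, per the labels' protocols. The authors deposited FPKM values per gene for the 8 libraries. STAR and hg38 are named in the submitters' processing notes, while the sources used here name no counter, annotation or strand setting. Of 26475 rows 26443 carry values, and 28 symbols turned into dates were not named. Depth came from the smallest FPKM steps: 1 fragment in 1 kilobase was worth 0.041 to 0.0648 FPKM.

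Values were analysed as log2(FPKM + 1) with limma 3.58.1 in R 4.3.3, a model of 4 groups with a variance trend, and Python 3.11.15 for counts and figures. The contrast was EPZ minus ENZ. Simulated data with known changes were used to test the fit. The comparison, the 42 gene lists and the rule for named genes were chosen with earlier results of these data known. That rule takes the 15 highest and 15 lowest called genes, up to 6 members of each list by smallest adjusted p and up to 3 called in the opposite direction, 10 fixed genes, and 5 genes alike between the agents; some were left out for length. Some genes that it takes are not reported here. Promoter genes, exceptions that did not pass and genes under the filter were named outside it, after their values were seen. Lists were described by counts and medians, with no set test. Promoters are from the RefSeq table (GRCh38.p14), 250 bases before to 50 after the start, and 9352 of 11874 tested genes matched. Genes on chr8 were left out when the promoters to show were chosen. Alternatives were another pseudocount, filter or scaling, only ENZ and EPZ in the fit, the replicate block, no variance trend and leaving out each library.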

Additional observations from a re-analysis of the deposited data

How the results depend on the processing

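The labels give each group replicates 1 and 2. They do not say if the numbers mark a shared culture or day. Same-numbered ENZ and EPZ libraries deviated together with r = 0.11, which over only 2 pairs cannot decide this. With the replicate block 2439 genes were higher and 3740 lower in EPZ, and 302 and 257 were at least 2-fold different. Of 51 counts and shares, 28 stayed within their limits under all alternatives, among them the androgen-induced, replication, mitosis, recombination and ER lists. With a mean of at least 5 FPKM required, fewer genes are tested: 194 were at least 2-fold higher and 168 lower, and the lists held 4 lower androgen-repressed, 1 higher EZH2-repressed, 5 lower PRC2-bound developmental, 3 lower HLA, 3 higher insulin-like growth factor, 2 lower steroid and 3 lower TGF-beta genes. A pseudocount of 0.1 gave 489 genes at least 2-fold lower. Higher ribosomal protein genes numbered 20 with no filter, 54 with median-of-ratios scaling and 13 with quantile normalization, where the median turned negative. Median-of-ratios scaling gave 8 higher ribosome biogenesis, 10 higher tRNA synthetase and 3 lower HLA genes, quantile normalization 9 higher respiratory chain and 3 higher reference genes (3 also with no filter), and the fit of only ENZ and EPZ 8 higher proteasome genes. DMSO lay between for 68% of higher and 44.8% of lower genes with a pseudocount of 0.1, and for 60.6% and 39.6% at 1.5-fold; Combination was nearer ENZ for 58.2% of higher genes with a pseudocount of 0.1 and 42.4% of lower genes at 1.5-fold. The CHR share was 53.8% in the shorter window. The cause of these changes was not tested.

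With each library left out in turn, genes higher ranged from 1658 to 2505 and lower from 2673 to 3593. Higher ribosomal protein genes ranged from 15 (without EPZ replicate 2; 22 without ENZ replicate 2) to 37, ribosome biogenesis from 3 to 7 (without ENZ replicate 1), respiratory chain from 5 (without EPZ replicate 2) to 16 and proteasome from 4 (without EPZ replicate 2) to 13. Lower HLA genes ranged from 3 (without ENZ replicate 1, EPZ replicate 1 or EPZ replicate 2) to 5, p53 targets from 4 (without EPZ replicate 2) to 6, and cell cycle regulators from 7 (without EPZ replicate 1) to 12. Higher zinc genes ranged from 5 to 6, and without ENZ replicate 2 their 5 came with a negative median. Of 133 named genes tested 124 were called, and of their 2107 values under the alternatives 16, in 3 genes, lost the call, 8 gained one and 0 changed direction.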

Other observations

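The genes below stand outside the lists and were chosen after their values were seen, so they make no theme. The neuroendocrine and neuronal list, with only 3 tested genes (2 higher in EPZ and 0 lower), was too small to describe. SLITRK3, a neuronal transmembrane protein gene, had a mean of 7.33 FPKM in ENZ and 0.499 in EPZ, near the 0.52 of DMSO, a difference of -2.47 (SE 0.093). CBLN2, a synapse organizer gene, had a mean of 24.3 in ENZ and 3.92 in EPZ, with 3.03 in DMSO (-2.36, SE 0.10). LRRN1, a leucine-rich repeat neuronal gene, had a mean of 10.6 in ENZ and 1.16 in EPZ, with 0.277 in DMSO and 104 in Combination (-2.42, SE 0.077). GRB10, an adaptor of insulin and growth factor receptors, had a mean of 155 in ENZ and 32.5 in EPZ, on either side of the 65.1 of DMSO (-2.22, SE 0.052). In the other direction, PIP, a secretory glycoprotein gene, had a mean of 0.0398 in ENZ and 9.64 in EPZ (3.35, SE 0.13).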
